A study of Canis lupus familiaris with 60 samples.

Results

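SELE, ICAM1 and VCAM1, the adhesion molecules that activated endothelium shows to blood leukocytes, were followed in dog skin together with VWF and KDR, a pair of genes that mark the endothelium itself. The probes of the 5 genes were found by transcript identifier, out of 1066 genes of the array that had a name in the RefSeq table used here. They are represented by 7 of the 60068 probes, a pair each for SELE and ICAM1 and a single probe each for VCAM1, VWF and KDR. All 7 probes passed the filter on dim signals, which 45972 probes passed, and all 7 were well above background on every array. Levels are log2 values of the processed signal after scaling between arrays, so a difference of 1 is a 2-fold difference. A level says nothing about the level of another probe.

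The skin came from 12 purebred Beagles, 6 sensitized by house dust mite put on the skin (4 males and 2 females) and 6 nonsensitized (2 males and 4 females), all aged 2 to 3 years. Each dog gave 5 punch biopsies of 8 mm from the clipped side of the chest: untreated skin at 0 hr, and sites that had been bandaged under a patch with 75 mg of mite allergen paste or under a patch with 50 µl of saline, at 6 hr and at 24 hr. These make 10 groups of 6 arrays. Specimen 14, from the allergen site of the sensitized dog 2839 at 24 hr, was not used in the comparisons, so that group had 5 arrays and 59 arrays entered the fit. Sex was not balanced over the dog groups. The sex of each dog is not in the labels, so sex could not be separated from sensitization here. The sensitization was experimental and not the natural disease. A biopsy holds all the cells of the skin, so more vessels and more RNA per endothelial cell cannot be told apart.

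Endothelium in resting skin binds few leukocytes. When cytokines such as tumor necrosis factor or interleukin 1 reach it, NF-kB signalling turns on E-selectin (SELE), on which leukocytes roll, and then ICAM1 and VCAM1, which leukocyte integrins grip before they cross the vessel wall. E-selectin is made almost only by endothelium, ICAM1 also by keratinocytes and leukocytes, and von Willebrand factor (VWF) and the VEGF receptor KDR are used as marks of the endothelial lineage. The comparisons asked whether the adhesion genes differed between allergen and saline sites, whether that difference differed between sensitized and nonsensitized dogs (the interaction), and whether the lineage genes moved with them.

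Over the 59 arrays the median processed signal ran from 81.7 to 146.12 and the share of spots well above background from 68.8% to 80.2%. A probe was called when its adjusted p, by limma with Benjamini-Hochberg adjustment over the 45972 probes, was below 0.05 and its change at least 1.5-fold. Biopsy time and hybridization were nearly aligned. The 24 hr arrays lay on slides 1 to 3, except 2 sensitized allergen arrays on slide 8, specimen 14 included, while the untreated arrays lay on slides 6 to 8. The slides fell into 3 scan sessions. Comparisons of a patch site with untreated skin are therefore given with and without the scan session as a block.

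In untreated skin SELE was low in both dog groups. Its level was 7.64, 8.18 and 8.51 (lowest, median and highest of 6) in the sensitized dogs and 7.36, 7.82 and 8.80 in the nonsensitized dogs. The groups overlapped. None of the 5 genes was called between the dog groups at 0 hr, beside 0.00218% of all probes.

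**Figure D1:**
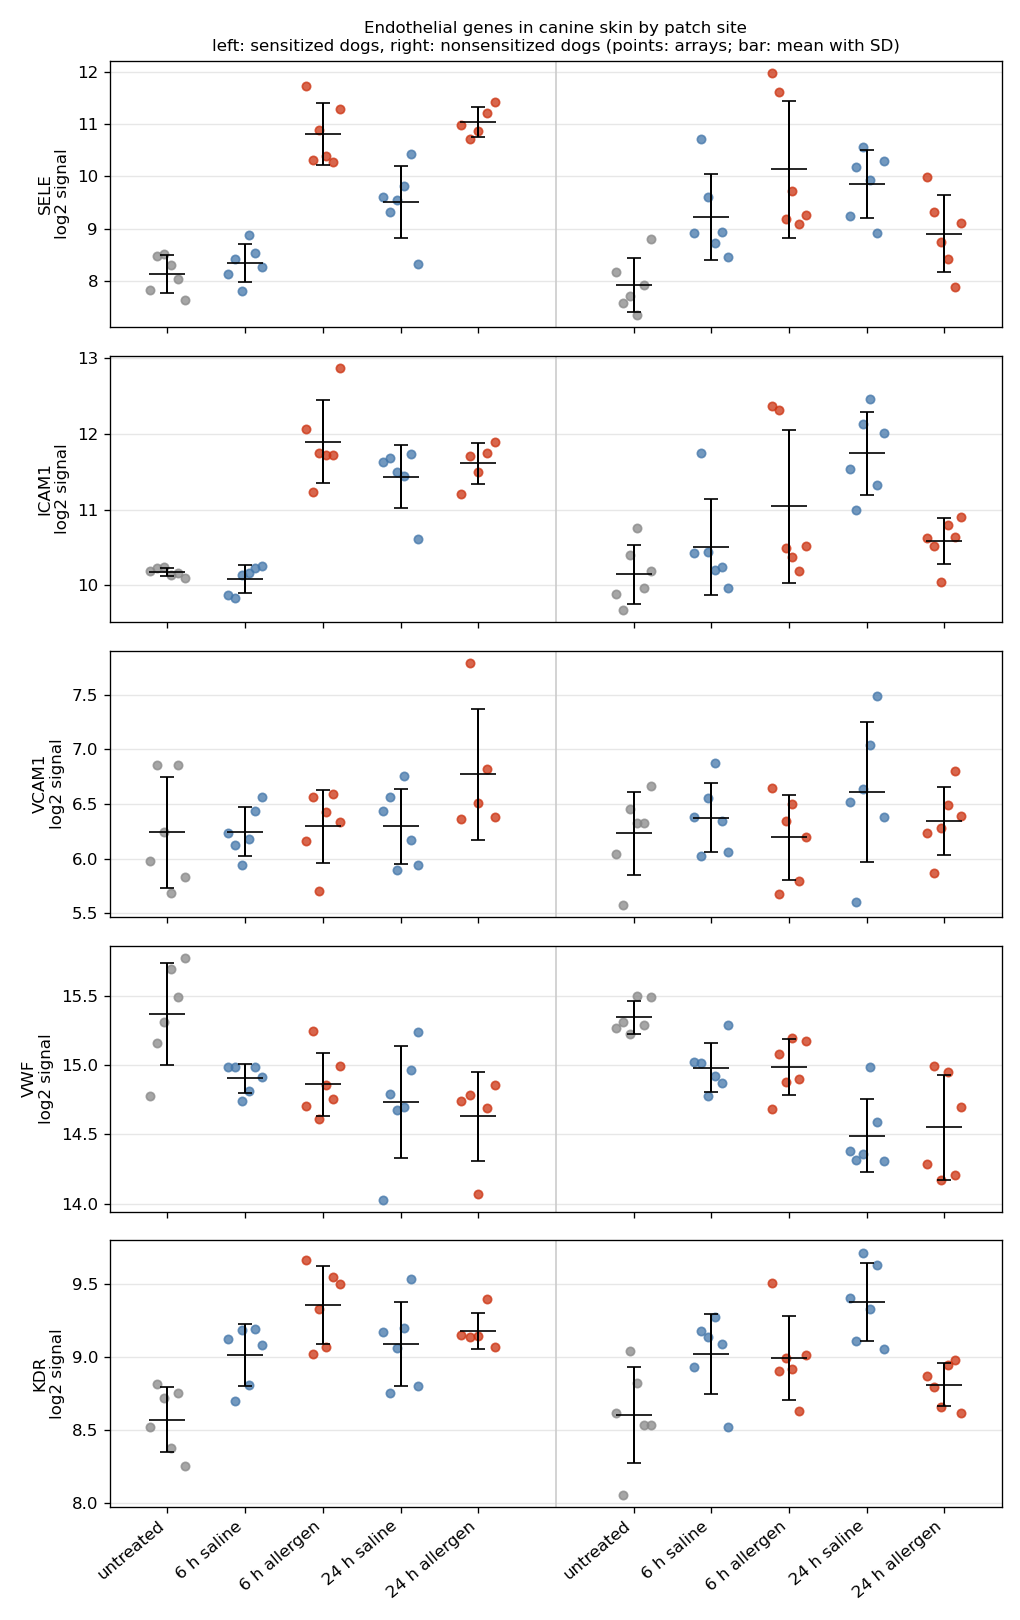
Scaled log2 processed signal of the brightest probe of SELE, ICAM1, VCAM1, VWF and KDR on each of the 59 arrays (points) in the 10 groups, with the mean and SD of each group; the panels have their own vertical axes and a level cannot be compared between them. SELE was high at the allergen sites of the sensitized dogs at both times, ICAM1 at these sites and at the 24 hr saline sites of both dog groups, VCAM1 spread widely within groups, and VWF was highest in untreated skin.

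At 6 hr the allergen sites of the sensitized dogs carried far more SELE and ICAM1 signal than their saline sites. SELE was 7.82, 8.34 and 8.89 (lowest, median and highest) under saline and 10.28, 10.64 and 11.72 under allergen. Every allergen site was above every saline site. The difference was 2.47 ± 0.39 (SE, n = 6 dogs), or 5.54-fold, with an adjusted p of 0.00024 by limma, and the largest difference within a dog was 3.59.

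ICAM1 was 9.83, 10.15 and 10.26 under saline and 11.24, 11.73 and 12.87 under allergen in the same dogs, again with no overlap. The difference was 1.81 ± 0.28 (SE, n = 6 dogs), or 3.50-fold, with an adjusted p of 0.00024 by limma, and all 6 dogs were higher under allergen, by up to 2.61. SELE and ICAM1 were thus 2 of 5 genes called in this comparison, beside 0.42% of all probes. Both were also free of overlap, as were 1.21% of all probes.

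VCAM1, which binds the integrin of eosinophils and lymphocytes, did not follow them at 6 hr. Under saline it was 5.94, 6.21 and 6.56 in the sensitized dogs and under allergen 5.70, 6.38 and 6.59, and 3 of 6 dogs were higher under allergen. The difference was 0.05 with a 95% interval from -0.42 to 0.52, and it was not called. The probe is dim, with median processed signals of 51.8 and 56.5 in these groups.

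VWF differed between the allergen and saline sites of the sensitized dogs by -0.04 at 6 hr (95% interval -0.36 to 0.27). KDR, the main receptor for VEGF, was higher under allergen in 6 of 6 dogs, by 0.14 to 0.54. Its groups overlapped, and its mean difference of 0.34 ± 0.14 (SE, n = 6 dogs) was not called, with an adjusted p of 0.383 by limma.

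The nonsensitized dogs were not alike at 6 hr. SELE was 9.09, 9.49 and 11.98 under allergen and 8.46, 8.93 and 10.72 under saline. Dogs 2704 and 2716 stood apart under allergen, at 11.98 and 11.61, while the other 4 dogs did not pass 9.72. They lay within the range of, or above, the sensitized dogs.

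Dog 2716 was also the highest of its group under saline, at 10.72, and so gained only 0.90 under allergen, against 3.05 in dog 2704. ICAM1 set the same dogs apart, with 12.36 in dog 2704 and 12.31 in dog 2716 against at most 10.52 in the other 4. The group differences were 0.91 for SELE and 0.54 for ICAM1, each higher in 5 of 6 dogs, and neither was called (adjusted p of 0.906 and 0.912 by limma). With each dog left out they were 0.48 to 1.18 for SELE and 0.26 to 0.66 for ICAM1, again not called. None of the 5 genes was called here, beside 0.0348% of all probes.

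The difference between the dog groups was itself tested. At 6 hr the allergen effect was larger in the sensitized dogs by 1.56 ± 0.55 (SE) for SELE and by 1.27 ± 0.40 (SE) for ICAM1, with unadjusted p of 0.0064 and 0.0027 by limma. No member was called, beside 0% of all probes, and the smallest adjusted p over all probes was 0.999988, while 524 probes had an unadjusted p below 0.05. The larger effect in sensitized dogs at 6 hr thus failed the adjustment over all probes, while the 95% interval was 0.46 to 2.67 for SELE and 0.46 to 2.07 for ICAM1.

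**Figure D2:**
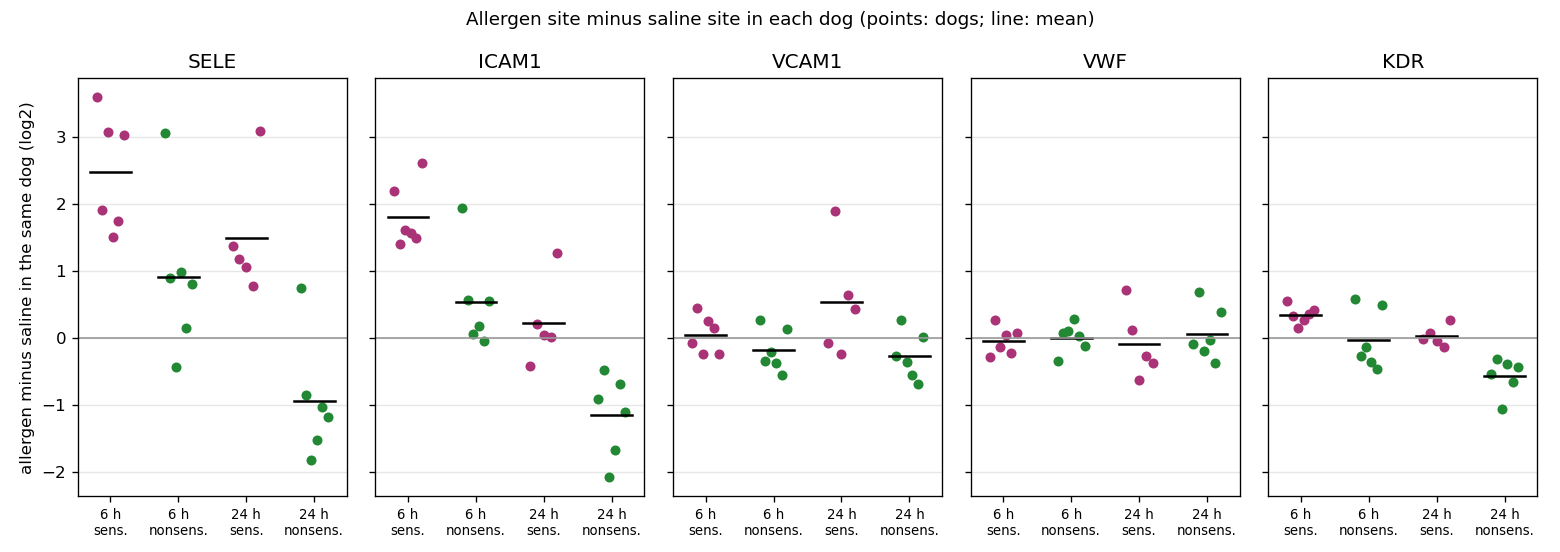
Allergen minus saline difference (log2) of each dog for the brightest probe of each gene, in the sensitized and nonsensitized dogs at 6 hr and at 24 hr; each point is a dog, short lines are means, and the grey line at 0 marks no difference. For SELE and ICAM1 all 6 sensitized dogs lie above 0 at 6 hr, and at 24 hr 5 of 6 nonsensitized dogs lie below it for SELE and 6 of 6 for ICAM1.

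At 24 hr the dog groups differed in the allergen effect on SELE. In the sensitized dogs it was 8.34, 9.58 and 10.44 under saline, and 10.98, 10.72, 10.87, 11.20 and 11.43 in the 5 dogs measured under allergen. Every allergen site was above every saline site, which made SELE the 1 gene of 5 without overlap, beside 1.37% of all probes. The nonsensitized dogs had 8.91, 10.05 and 10.57 under saline and 7.88, 8.93 and 9.98 under allergen, so there the allergen sites were the lower ones, with overlap.

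Dog by dog, the allergen minus saline difference of SELE at 24 hr was between 0.77 and 3.09 in the 5 sensitized dogs, with the highest value in dog 2855. Among the nonsensitized dogs it was negative in 5 of 6, down to -1.81 in dog 2800, and positive only in dog 2704, at 0.74. Neither group was called on its own in the unpaired fit. The group difference was 1.53 ± 0.41 (SE, n = 5 arrays against 6) with an adjusted p of 0.0646 by limma in the sensitized dogs and -0.94 ± 0.39 (SE, n = 6 dogs) with an adjusted p of 0.275 in the nonsensitized dogs.

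A fit that paired the sites of each dog (dog block) gave 1.51 for SELE in the sensitized group, which was called (adjusted p of 0.0160 by limma). It was also called under 5 other settings of 13, at 1.16 to 1.63 with adjusted p of 0.0062 to 0.0496, and without dog 2704 (1.53, adjusted p of 0.0320) or dog 2716 (1.53, 0.0386). Within single slides that held both kinds of site, it was 1.43 and 1.67 on slides 2 and 3 in the sensitized dogs. For the nonsensitized dogs the values were -1.03, 0.08 and -1.52 on slides 1 to 3.

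The SELE interaction at 24 hr, the one member call among 5 genes beside 0.942% of all probes, thus joined a positive difference in one dog group to a negative one in the other. It was 2.47 ± 0.56 (SE) with a 95% interval from 1.34 to 3.60 and an adjusted p of 0.0188 by limma. The call was lost without dog 2800 (2.30, adjusted p of 0.0810), without dog 2802 (2.35, 0.0775) and without dog 2855 (2.14, 0.137). Under allergen alone the sensitized dogs were higher by 2.13 ± 0.41 (SE, n = 5 against 6 arrays; adjusted p of 0.000244 by limma), with no overlap.

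ICAM1 at 24 hr differed within the nonsensitized dogs. In the sensitized dogs its level was 10.62, 11.56 and 11.74 under saline, and 11.21, 11.70, 11.49, 11.75 and 11.89 under allergen, with overlap. The nonsensitized dogs had 10.99, 11.77 and 12.46 under saline and 10.04, 10.63 and 10.90 under allergen. There every allergen site was below every saline site.

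Hence the sensitized dogs showed a difference of 0.17 (95% interval -0.42 to 0.77), while in the nonsensitized dogs ICAM1 fell by 1.15 ± 0.28 (SE, n = 6 dogs; adjusted p of 0.0204 by limma), in 6 of 6 dogs. It was the 1 gene of 5 called there, beside 0.766% of all probes, and none was called in the sensitized dogs, beside 0.274%. The call was lost without dog 2800 (-0.97, adjusted p of 0.215), without dog 2802 (-1.05, 0.142) and without dog 2847 (-1.16, 0.0570). On slides 1 to 3 the nonsensitized difference was -0.92, -1.20 and -1.67.

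The ICAM1 interaction at 24 hr was 1.33 ± 0.41 (SE) and was not called (adjusted p of 0.0892 by limma). A fit of the 24 hr arrays alone gave 1.33 with an adjusted p of 0.0493, and without dog 2716 it was 1.46 with an adjusted p of 0.0255. Under allergen the sensitized dogs had more ICAM1 signal than the nonsensitized dogs, by 1.02 ± 0.30 (SE; adjusted p of 0.0113 by limma), with no overlap. With the slide as a fixed block this was 0.82 and was not called (adjusted p of 0.167). Slide 1 held 4 of the 6 nonsensitized arrays in it and none of the sensitized ones. SELE and ICAM1 were 2 of 5 genes called in that comparison, beside 7.17% of all probes. With KDR, 3 genes had no overlap, beside 7.87%. Under saline no gene of the 5 was called between the dog groups, beside 2.38% of all probes at 24 hr and 0% at 6 hr, and none under allergen at 6 hr, beside 0%.

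VCAM1 at 24 hr was 6.36, 7.79, 6.51, 6.82 and 6.38 in the 5 sensitized dogs under allergen, with the single high value in dog 2840. It was 5.89, 6.30 and 6.75 under saline in these dogs. The nonsensitized dogs had 5.60, 6.58 and 7.49 under saline and 5.87, 6.34 and 6.80 under allergen. All these groups overlapped.

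VCAM1 was called in none of the comparisons in the fit without a block. Its 24 hr interaction was 0.74 ± 0.34 (SE) with a 95% interval from 0.06 to 1.43, an unadjusted p of 0.0342 and an adjusted p of 0.295 by limma. The interval holds differences above 1.5-fold, so these arrays do not show that VCAM1 was alike in the dog groups. With each dog left out the interaction was 0.41 to 0.90 and was not called.

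The lineage marker VWF, stored by endothelial cells for clotting, gave no difference between allergen and saline sites at 24 hr that passed the test. The differences were -0.10 (95% interval -0.43 to 0.23) in the sensitized dogs and 0.06 (-0.25 to 0.38) in the nonsensitized dogs. The interaction was -0.16 with a 95% interval from -0.62 to 0.29.

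KDR was not called between allergen and saline in either dog group in the unpaired fit. At 24 hr in the nonsensitized dogs it was 9.06, 9.37 and 9.72 under saline and 8.62, 8.83 and 8.98 under allergen, lower under allergen in 6 of 6 dogs and with no overlap. The difference of -0.56 ± 0.14 (SE, n = 6 dogs) had an adjusted p of 0.0263 by limma but stayed under 1.5-fold. It was past 1.5-fold and called with no filter (-0.60) and with array weights over all 60 arrays (-0.59), and without dog 2716 (-0.61) or dog 2847 (-0.59). ICAM1 and KDR were the 2 of 5 genes without overlap there, beside 1.88% of all probes.

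In the sensitized dogs KDR was 8.75, 9.12 and 9.54 under saline and 9.15, 9.14, 9.15, 9.40 and 9.07 under allergen, with the allergen values inside the saline range. Its interaction was 0.66 ± 0.21 (SE; adjusted p of 0.0956 by limma). With the dog as a block it was 0.62 and was called (adjusted p of 0.0302).

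The lineage genes therefore did not move as one. Over the 59 arrays their levels correlated at r = -0.51, and at -0.24 after the mean of each group was taken out. SELE and ICAM1 correlated at 0.84 and 0.69 in the same way, KDR with SELE at 0.63 and with ICAM1 at 0.69, and VCAM1 with SELE at 0.13. These are descriptions over arrays that share dogs, slides and the scaling.

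Relative to the mean of VWF and KDR on the same array, the effect of allergen against saline in sensitized skin at 6 hr was 2.32 for SELE, 1.66 for ICAM1 and -0.10 for VCAM1. The relative interaction at 24 hr was 2.22 for SELE, 1.08 for ICAM1 and 0.50 for VCAM1. The marker that was chosen mattered. Against VWF alone the 3 values at 24 hr were 2.63, 1.49 and 0.91, and against KDR alone 1.81, 0.67 and 0.09.

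SELE kept most of its value against either marker, while that of VCAM1 was near 0 against KDR. These relative values carry no test of their own. Among 18 other endothelial lineage genes listed, only PDPN and CAV1 had a named probe, so VWF and KDR could not be set against a wider list. PDPN, which lymphatic vessels use, stood at 1.16 in the 24 hr interaction (adjusted p of 0.0890 by limma) and CAV1 at -0.24, neither called. Between allergen and saline in the nonsensitized dogs at 24 hr PDPN was called at -1.24 (adjusted p of 0.00288 by limma), beside 0.766% of all probes. Between the dog groups under allergen at 24 hr it was called at 1.26 (adjusted p of 0.00053 by limma), beside 7.17%. CAV1 went the other way in these comparisons, at 0.35 and -0.32, and was not called.

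**Figure D3:**
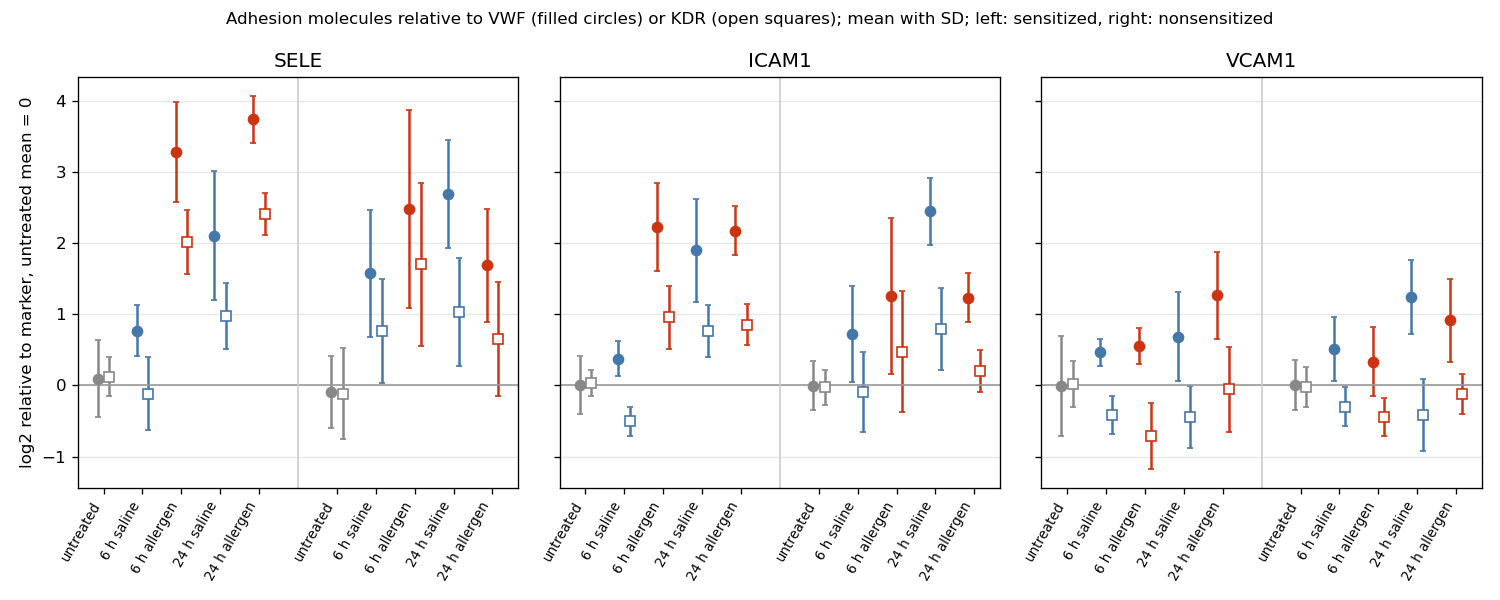
SELE, ICAM1 and VCAM1 relative to VWF (filled circles) or to KDR (open squares) in the 10 groups, as log2 values with the mean of untreated skin set to 0; points are group means and bars the SD over dogs. In the sensitized dogs at 24 hr, SELE under allergen stood at 3.74 against VWF and at 2.41 against KDR, and VCAM1 at 1.26 against VWF but at -0.06 against KDR.

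Against untreated skin, SELE and ICAM1 were higher at the 24 hr saline sites too by their brighter probes. At 6 hr the saline sites of the sensitized dogs differed from untreated skin by 0.21 for SELE and by -0.09 for ICAM1, neither called. Untreated skin is shared by all these comparisons, so each is given by its own values. At 24 hr SELE was higher under saline by 1.37 ± 0.39 (SE) in the sensitized and by 1.93 ± 0.39 (SE) in the nonsensitized dogs, in 6 of 6 dogs each. ICAM1 was higher by 1.26 ± 0.28 (SE) and by 1.59 ± 0.28 (SE), also in 6 of 6 dogs each, and all 4 differences were called by limma.

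Of the 5 genes, 3 were called under saline at 24 hr in the sensitized dogs, beside 9.54% of all probes, and 4 in the nonsensitized dogs, beside 22.8%. The genes called lower there were VWF in both dog groups, by 0.64 and 0.86. With the scan session as a block none of these SELE, ICAM1 or VWF calls was kept. SELE was then 0.97 and 1.43, ICAM1 0.94 and 1.26, and VWF -0.06 and -0.05. In the nonsensitized dogs no scan session held both untreated and 24 hr saline arrays, so their blocked values rest on the other groups.

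The VWF differences depended on this block. Without the block its 8 differences from untreated skin ran from -0.86 to -0.36, and with it from -0.40 to 0.01, with 4 called before and 0 after. On the unscaled signal the same 24 hr differences under saline were -0.29 and -0.26. Whether time or hybridization set VWF cannot be told apart.

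KDR was above its untreated level in all 8 comparisons, by 0.21 to 0.79 without the block and by 0.19 to 0.75 with it. Its level in untreated skin was 8.25, 8.62 and 8.81 in the sensitized and 8.06, 8.58 and 9.04 in the nonsensitized dogs. It was called in 3 of the 8 without the block and in 2 with it. In the sensitized dogs at 24 hr under allergen its 0.61 was called in the fit without a block only at the edge of 1.5-fold, and the call was lost without dog 2841 (0.58) and without dog 2855 (0.57). It was also lost under 6 of 12 other settings, which gave 0.57 with the dog, 0.56 with the scan session, 0.52 with the slide as a fixed and 0.56 as a random block, 0.56 with normexp and 0.40 with all 60 arrays.

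Under allergen, SELE exceeded untreated skin by 2.68 at 6 hr and 2.90 at 24 hr in the sensitized dogs, and by 2.21 and 0.98 in the nonsensitized dogs. For ICAM1 the values were 1.71 and 1.43, and 0.90 and 0.44. Of these 8, only the last was not called without a block. The call of ICAM1 at 6 hr in the nonsensitized dogs (adjusted p of 0.0446 by limma) was lost under 9 other settings and without any of 7 dogs taken singly. The lowest of these were 0.58 without dog 2704 and 0.55 without dog 2716. Without dogs 2838, 2840, 2841 or 2853 it was 0.90 and without dog 2845 1.03. The call of SELE at 24 hr in the nonsensitized dogs was lost without dog 2704 (0.82), dog 2716 (0.83), dog 2800 (0.97) or dog 2802 (0.97), and the dimmer SELE probe gave -0.21 there. It was also lost with the mean over the probes (0.38), the slide as a fixed (0.32) or random block (0.81) and the scan session as a block (0.49).

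Under allergen at 6 hr, 3 of 5 genes were called in the sensitized dogs beside 3.89% of all probes, and 2 in the nonsensitized dogs beside 1.61%. At 24 hr 4 of 5 were called in the sensitized dogs beside 13.8%, and 2 in the nonsensitized dogs beside 17.1%. Under saline at 6 hr none was called in the sensitized dogs beside 2.66%, and in the nonsensitized dogs only SELE, at 1.30, beside 2.28%. That call was lost without dog 2716 (0.94), dog 2800 (1.18) or dog 2802 (1.29), with the scan session (0.83) and the slide as a fixed (0.59) or random block (1.02), and with the mean over the probes (0.65), and the dimmer SELE probe gave -0.01.

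With the scan session as a block, VCAM1 in sensitized skin under allergen at 24 hr was 0.87 above untreated skin. It was called (adjusted p of 0.016 by limma), against 0.53 and no call without the block. Most sensitized untreated arrays were of scan session 3. The only sensitized 24 hr allergen array of that session in the fit was that of dog 2840, the single high VCAM1 value. The blocked fit was not repeated without this dog. With the same block SELE was called in 3 and ICAM1 in 2 of the 8 comparisons with untreated skin, against 7 and 5 without it. The slide as a fixed block left 2 and 1 calls, and as a random block 5 and 4.

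**Figure D4:**
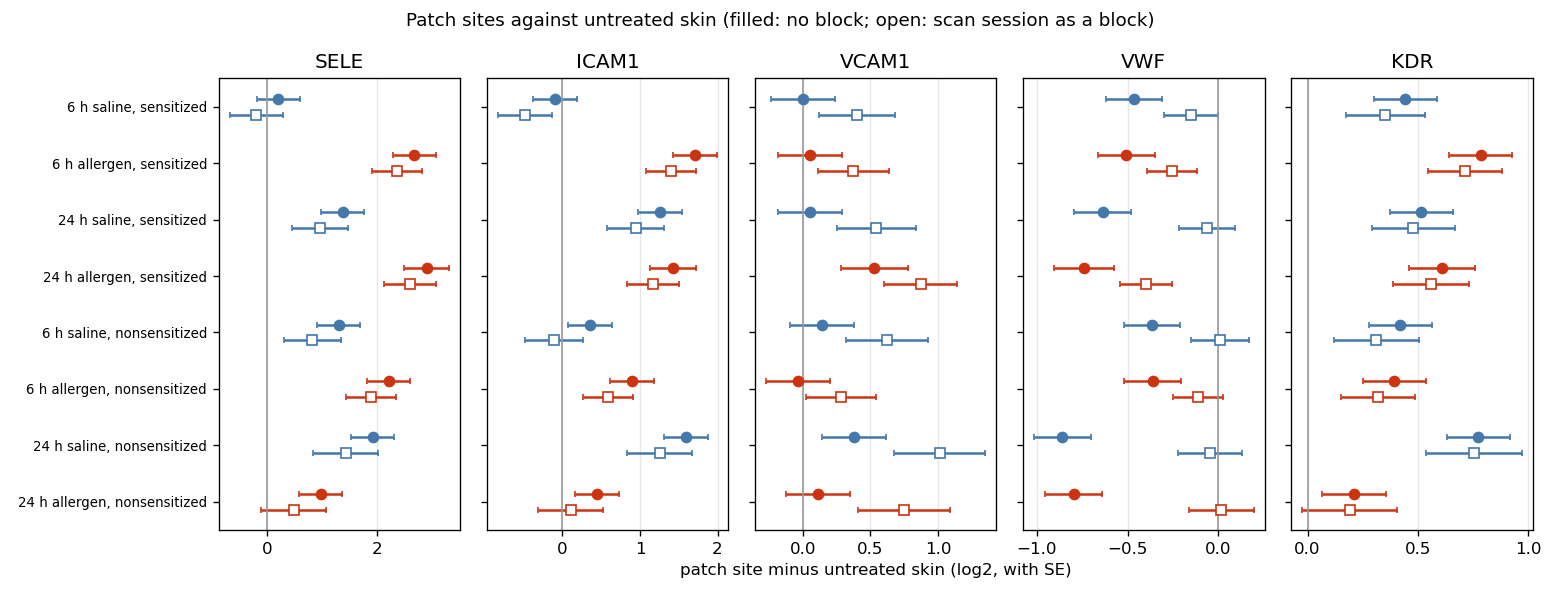
Patch site minus untreated skin (log2, with SE) for each gene, dog group, patch and time, without a block (filled) and with the scan session as a block (open). VWF lies between -0.86 and -0.36 without the block and between -0.40 and 0.01 with it, while KDR stays between 0.19 and 0.79 in both.

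The pair of probes for SELE and the pair for ICAM1 allowed a check within each gene. The dimmer SELE probe also rose under allergen in the sensitized dogs at 6 hr, by 1.08 ± 0.20 (SE, n = 6 dogs; adjusted p of 0.00208 by limma), though not past the call without dog 2838 (0.97, adjusted p of 0.0645) or dog 2855 (0.96, 0.0508). Its 24 hr interaction was 1.03 with an adjusted p of 0.0542, and 1.01 with an adjusted p of 0.0161 with the dog as a block. That interaction was called under 7 of 12 other settings, the dog block included, and the 12 ran from 0.66 to 1.29. It stayed uncalled in 10 of 12 fits with a dog left out. Under saline at 24 hr the dimmer SELE probe differed from untreated skin by only 0.01 and 0.02, where the brighter probe gave 1.37 and 1.93. The probes of SELE thus disagreed on the rise under saline. In these groups the median processed signal of the dimmer probe ran from 56.0 to 72.8, and that of the brighter probe from 187.6 to 1213.9. Whether the dim signal hid a rise was not tested.

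For ICAM1 the dimmer probe fell in the nonsensitized dogs at 24 hr by 0.74 ± 0.17 (SE, n = 6 dogs; adjusted p of 0.00855 by limma). That call was lost without dog 2800 (-0.70, adjusted p of 0.0739), dog 2802 (-0.68, 0.100) or dog 2845 (-0.72, 0.0522), and with normexp (-0.50, under 1.5-fold). Under saline at 24 hr it was above untreated skin by 0.77 and 0.96, the same direction as the brighter probe. Its rise under allergen at 6 hr in the sensitized dogs, 0.63, was not called (adjusted p of 0.0641), and its 24 hr interaction was 0.81 (adjusted p of 0.0723, and 0.0233 with the dog as a block). That interaction was called under 4 of 12 other settings, the dog block included, and the 12 ran from 0.56 to 1.07. Between the probes of a gene the levels correlated at 0.83 for SELE and at 0.85 for ICAM1 over the 59 arrays.

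**Figure D5:**
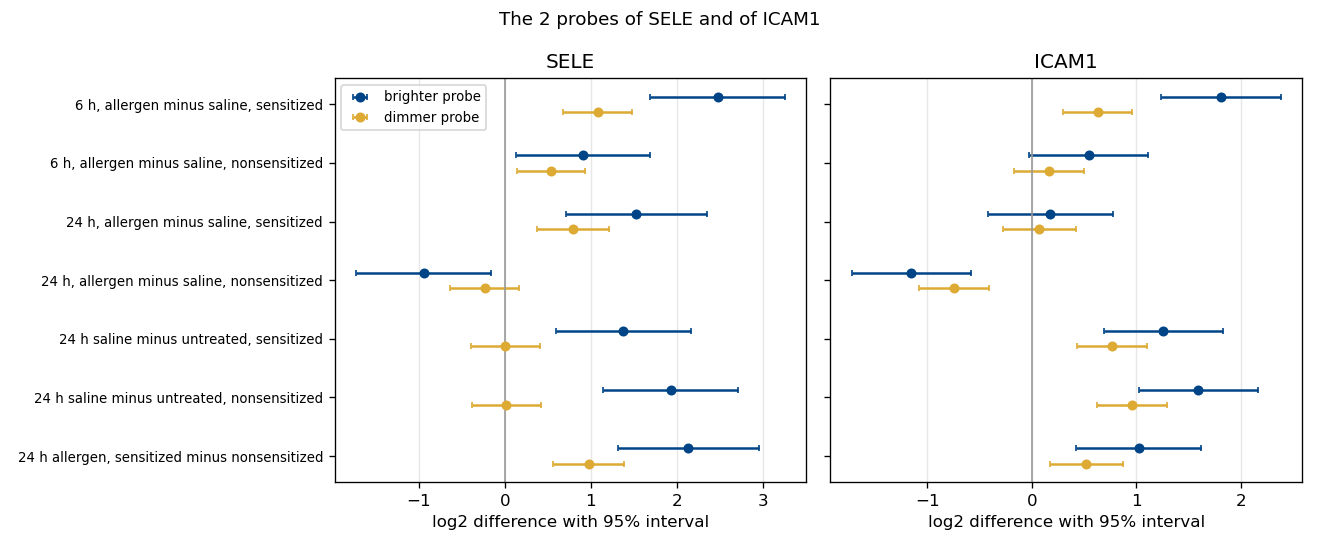
Log2 differences of the brighter and the dimmer probe of SELE and of ICAM1 in the main comparisons, with 95% intervals. In the 4 allergen minus saline comparisons the probes of a gene share their direction and the dimmer probe gives the value nearer 0. For SELE under saline at 24 hr the dimmer probe stands at 0.01 and 0.02.

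By the brighter probes the group means could be put in order. SELE was highest in the sensitized dogs under allergen at 24 hr (11.04) and at 6 hr (10.82), followed by the nonsensitized allergen sites at 6 hr (10.14), and lowest in untreated skin. ICAM1 was highest in the sensitized allergen sites at 6 hr (11.89), and the nonsensitized saline sites at 24 hr came next (11.74). In neither order did any neighbours differ by more than the larger SD of the pair. The order by the dimmer probes differed in part. The dimmer SELE probe was lowest in the sensitized saline sites at 6 hr (5.90) and the dimmer ICAM1 probe highest in the nonsensitized saline sites at 24 hr (6.75). For VWF the one step beyond the SD lay below untreated skin.

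Genes around the pathway were counted from lists. Of 25 inducers and signalling genes, 5 passed the filter, among them TNF and IL1A but not IL1B, IL4 or IFNG. At 24 hr IL6, a cytokine of acute inflammation, was the 1 of 5 called in the interaction, beside 0.942% of all probes, at 2.91 ± 0.77 (SE; adjusted p of 0.0406 by limma). TNF stood at 0.33 and IL13, a cytokine of allergic inflammation, at 1.78 (adjusted p of 0.0956), neither called. The IL6 call was lost without any of 8 dogs taken singly, 2.34 without dog 2855 being the lowest value, and with normexp (1.69).

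Of 17 vascular response genes, 13 were tested and 1 was called in the 24 hr interaction, beside 0.942% of all probes. It was CCL2, which draws monocytes, at 2.36 ± 0.60 (SE; adjusted p of 0.0361 by limma). It was lost without any of 7 dogs taken singly, down to 2.00 without dog 2855, and on unscaled values or with no filter. The median of the 13 genes was 0.14 against -0.004 over all probes. The clotting and vessel growth genes VEGFA (-0.13), ANGPT2 (-0.20), THBD (0.07) and EDN1 (-0.23) were not called.

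At 6 hr in the sensitized dogs, 3 of the 13 vascular response genes and 1 of the 5 inducers were called, beside 0.42% of all probes. Those reported here, named after their values were seen, were CCL2 at 2.85, the prostaglandin synthase PTGS2 at 2.56 and IL6 at 2.79, all with more signal under allergen. None of the 3 adhesion partners and ligands measured (MADCAM1, CD44 and CD34, of 19 listed) was called in this comparison or in the 24 hr interaction, beside 0.42% and 0.942% of all probes. Their 24 hr interactions were between -0.16 and 0.32.

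Of 21 leukocyte markers listed, 9 were tested, and 1 was called in the 24 hr interaction, beside 0.942% of all probes. All 9 values were positive, with a median of 0.76, but CD4 (0.04), CXCR2 (0.06), KIT (0.09) and CD8A (0.16) were near 0. The one called was CD28, a costimulatory receptor of T cells, at 0.97 ± 0.19 (SE; adjusted p of 0.00802 by limma), and not without dog 2855 (0.85, adjusted p of 0.0715) or with normexp (0.48, under 1.5-fold). MS4A1, a B cell marker, did not pass the filter.

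The mean level of the 9 markers, each relative to its own mean over all arrays, was 0.52 to 0.79 in the sensitized allergen sites at 24 hr and -0.08 to 0.47 in their saline sites. For the nonsensitized dogs it was -0.32 to 0.19 under allergen and 0.02 to 0.70 under saline. At 6 hr in the sensitized dogs it was -0.14 to 0.27 under allergen and -0.59 to 0.02 under saline. The part of leukocytes in the ICAM1 and VCAM1 values was not tested. The 7 stroma and keratinocyte markers tested had a median interaction of 0.03 at 24 hr, and none was called. Of these, 4 were positive, such as DES at 0.48, and others negative, such as KRT1 at -0.50.

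Among 901 other named genes, those whose levels most resembled SELE over the 59 arrays were CCL20 (r = 0.88), BIRC3 (0.88) and CCL8 (0.87). For ICAM1 they were IL6 (0.93), CCL8 (0.93) and CCL2 (0.92). For VCAM1 the closest were CD209 (0.58), FUT8 (0.55) and FTH1 (0.54), so no named gene came near it. CCL20 and CCL8 are chemokines and BIRC3 an inhibitor of cell death. For the lineage gene VWF the closest were FLT3LG (0.94), FOSB (0.94) and B3GAT2 (0.94). For KDR they were CCL13 (0.78), PTH1R (0.72) and TLR2 (0.72). Whether VWF and KDR followed the amount of endothelium in these biopsies was not tested.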

How the data were processed

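Total RNA of each biopsy was labelled with Cy3 and put on its own one-colour canine array. The authors deposited intensity values from Agilent Feature Extraction (10.7.3.1, per the submitters' processing notes), with background subtracted and no scaling between arrays. Outlier spots were set to missing, and a spot had to exceed background clearly on 5 or more arrays of some group. Specimen 14 was excluded, following the methods of the study. Variance stabilization, the study's method, was reimplemented, since its package was not installed. The steps were tested on simulated data with independent arrays and no dog, slide or scan session effect. That test cannot speak to the pairing of dogs or to hybridization.

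Repeated spots were averaged by probe, and a gene is given by its brightest probe, with the other probe named as dimmer. limma (3.58.1, R 4.3.3) fitted the 10 group means jointly and unpaired. Calls needed an adjusted p below 0.05 and 1.5-fold. Relative values are a gene's log2 level minus that of the markers. The p-values and SEs of this unpaired fit rest on the spread of the arrays around their group means, pooled over the 10 groups. That spread mixes differences between dogs with differences between biopsies of a dog. Biopsies of the same dog were treated as independent in it.

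The genes were matched by identifier, with versions dropped, through RefSeq names of UU_Cfam_GSD_1.0, in which 1080 of 54633 identifiers were found. None of its coordinates was used. The sources used here hold no sequence of these probes or genes. All probes of the 5 genes were named. Of the lists, genes called in the 24 hr interaction were named, plus a few not called, and the 3 named genes most correlated with each of the 5 genes. The genes, lists and tests were chosen with earlier results of these data known. The result of 1 listed gene is not reported here.

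The dog numbers pair arrays of the same animal: deviations from group means correlated at a median of 0.386 within a dog and -0.0438 between dogs. The alternatives were other scalings, other filters, all 60 arrays, array weights, the dog or slide as a block, a fit per time point, the mean over probes, an unadjusted p below 0.002 and each dog left out. The scan session as a block, single lineage markers, and normexp (offset 50) and the mean over probes for the other comparisons were added after seeing the data. Intervals are 95%. The number of arrays limits the precision.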

Additional observations from a re-analysis of the deposited data

Results flagged for a closer look

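The 24 hr interaction was past the limits for SELE (2.47), so the allergen effect differed between the dog groups by the test of the difference itself. The same held for IL6 (2.91), CCL2 (2.36) and CD28 (0.97) among the listed genes.

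Of 70 sets of a member probe and a group, 6 had a lowest or highest dog far from the others, where chance gives about 1 in 20. Dog 2716 was high under saline at 6 hr in the nonsensitized group, at 11.74 for ICAM1 (others 9.97 to 10.44) and 7.00 for the dimmer SELE probe (others 5.83 to 6.23). Dog 2855 was low for ICAM1 under saline at 24 hr in the sensitized group, at 10.62 (others 11.44 to 11.74). The dimmer SELE probe was low in untreated skin of the sensitized dog 2838, at 5.86 (others 6.16 to 6.33). Among the sensitized allergen sites at 24 hr, dog 2841 was low for VWF, at 14.07 (others 14.69 to 14.86), and dog 2853 was high for KDR, at 9.40 (others 9.07 to 9.15).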

How the results depend on the processing

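The SELE interaction at 24 hr was called under all 15 alternatives, from 1.75 to 2.58 with adjusted p of 0.00437 to 0.0374. With each dog left out it was 2.14 to 2.81, and its call was lost without 3 dogs. The ICAM1 interaction was 1.09 to 1.47 with each dog left out. It was called in a fit of the 24 hr arrays alone (1.33) and without dog 2716, and in no other alternative. That of KDR was called with array weights over all 60 arrays (0.76) and with the dog as a replicate block (0.62). The relative interaction of VCAM1 moved from 0.50 to 0.91 against VWF alone and to 0.0874 against KDR alone. With each dog left out it was 0.18 to 0.70.

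The number of probes called in the 24 hr interaction was 433. It was 85 on unscaled values, 235 with no filter, 765 with all 60 arrays, 1132 with array weights, 1629 with the dog as a replicate block, 1046 with the slide and 808 with the scan session as a fixed block, and 709 at an unadjusted p below 0.002. With each dog left out it ran from 15 (dog 2855) to 757 (dog 2704), with 45 without dog 2800 and 44 without dog 2802. Of the called probes 63.7% were higher, and 51.5% with 75th percentile scaling, 62.2% with normexp and 95.3% on unscaled values.

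Among the differences followed across all alternatives, directions that turned belonged to small differences that were not called, with 1 exception. It was VWF under allergen at 24 hr against untreated skin in the nonsensitized dogs, which was called at -0.80 and was 0.015 with the scan session as a block. For VCAM1 at 6 hr in the sensitized dogs, allergen minus saline became -0.0101 with normexp, -0.0166 with array weights, -0.0021 with the slide and -0.0309 with the scan session as a block (-0.0289 to 0.106 with each dog left out). For VWF at 6 hr in the nonsensitized dogs it became -0.0011 with normexp, -0.0386 unscaled, -0.0198 with no filter, -0.141 and -0.0556 with the slide as a fixed or random block and -0.122 with the scan session (-0.0515 to 0.0721 with each dog left out). For VWF at 24 hr in the nonsensitized dogs it became -0.0108 unscaled (-0.0615 to 0.15). For KDR it became 0.0088 at 6 hr in the nonsensitized dogs with the scan session (-0.149 to 0.0588), and -0.118 at 24 hr in the sensitized dogs with all 60 arrays. With each dog left out, ICAM1 at 24 hr in the sensitized dogs ran from -0.0592 to 0.314, and VWF in these dogs from -0.104 to 0.0047 at 6 hr and from -0.272 to 0.0292 at 24 hr. Other differences from untreated skin, not counted here, also turned with a block. SELE was higher in 8 of 8 without a block. It was higher in 7 with the scan session (lowest -0.19) or the slide as a fixed block (lowest -0.15). ICAM1 was higher in 7 without a block and in 6 with either. VWF was higher in 0 without a block, in 1 with the slide (0.10) and in 2 with the scan session. VCAM1 was higher in 7 without a block and in 8 with the scan session. The causes were not tested.

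Over all results, alternatives left 678 values on their side of the limits and in their direction, 69 lost the call, 28 gained it, 14 turned and 2 relative values moved. With 1 dog left out the counts were 719, 51, 9 and 13. The dog as a replicate block changed no call of the 5 genes beyond those given with the results. Differences between the dog groups at one site cannot be estimated with it. The number of dogs limits what can be told apart.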

Other observations

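Specimen 14, left out above, had the lowest median processed signal of the 60 arrays (70.97) and a median correlation of 0.933 with the other arrays, against at least 0.972 for each of the 59. When all 60 arrays were scaled together, its SELE level was 9.30, below the 10.71 to 11.42 of the other sensitized allergen sites at 24 hr. KDR was 7.91 against 9.06 to 9.39. The dimmer SELE probe was the other way, at 7.64 against 6.74 to 7.34. ICAM1 (11.66), VCAM1 (6.71) and VWF (14.75) lay within the range of the other 5 dogs.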
